A study of Mus musculus with 15 samples.

Results

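The genes described here are 29 genes that mark T cells, B cells and natural killer (NK) cells, measured in the liver of diabetic KKAy mice given Xiao-Ke-An (XKA), of untreated KKAy mice and of C57BL/6J mice. They were listed by what they are known to do in lymphocytes. The rule uses no measured value, but the list was chosen with earlier results of these data known. Every probe set that the array annotation gives to the single symbol of a listed gene was used. Of the 29 genes, 27 were measured, by 40 probe sets of 34945, among 18193 genes in all. Lck, a kinase that starts T cell receptor signalling, has no probe set under its own symbol in the annotation used, and the probe set of Klrb1c, the NK1.1 antigen, is shared with Klrb1b, so neither was counted. Male mice of 3 groups were compared, with 5 livers and 5 arrays in each. The XKA group was KKAy mice on a high-fat diet that received XKA, a formula of several herbs, by daily gavage at 1.5 g/kg for 32 days. The KKAy model group was KKAy mice on the same diet that received distilled water. The normal group was C57BL/6J mice on chow that received distilled water. KKAy mice carry the yellow allele of agouti on the KK background and were young adults when dosing began. Their supplier was not that of the C57BL/6J mice, and in any comparison with C57BL/6J the strain, the diet and the supplier cannot be told apart.

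T cells recognise peptides on MHC molecules through a receptor whose CD3 chains pass the signal to the kinases Lck and Zap70, with CD4 or CD8 as coreceptor. B cells signal through the CD79 chains of their antigen receptor, and NK cells and cytotoxic T cells kill with perforin and granzymes released from granules. The liver holds a resident population of these cells in its sinusoids that is known to be rich in NK cells and other innate-like lymphocytes, beside the far more numerous hepatocytes. In whole liver RNA, fewer lymphocytes and less RNA per lymphocyte cannot be told apart.

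The arrays were those of liver tissue by their own markers, since 9 of 9 measured hepatocyte genes lay over the 95th percentile of genes on all 15 arrays. The deposited array medians ran from 136 to 161 in the XKA group, from 127 to 162 in the KKAy model group and from 146 to 182 in the C57BL/6J group, and each array was scaled to a median of 1000. On that scale, 3 lymphocyte genes (Zap70, Coro1a and Cd52) were over the array median on all 15 arrays. Another 6 (Cd4, Cd8b1, Cd6, Cd27, Cd28 and Cd79a) were under it on all 15, and 18 lay on both sides. The mean over the 15 arrays was under the median for 14 of the 27 genes, compared with 36.1% of all genes. Probe sets for olfactory and vomeronasal receptors, which liver is not known to use, had a median signal of 345 and a 95th percentile of 1178, so many of the lymphocyte signals fell in the range of these receptors. The SD within groups had a median of 0.77 on the log2 scale over the lymphocyte genes (range 0.33 to 1.6), and of 0.43 over all genes. Gzmb had the largest SD, and its highest array was 40.8 times its lowest. The smallest SD was that of Coro1a (0.33), and the smallest ratio of highest to lowest array was that of Cd79b, at 2.38 times. Signals of different probe sets were not ranked against each other, since probe affinity enters them.

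**Figure D1:**
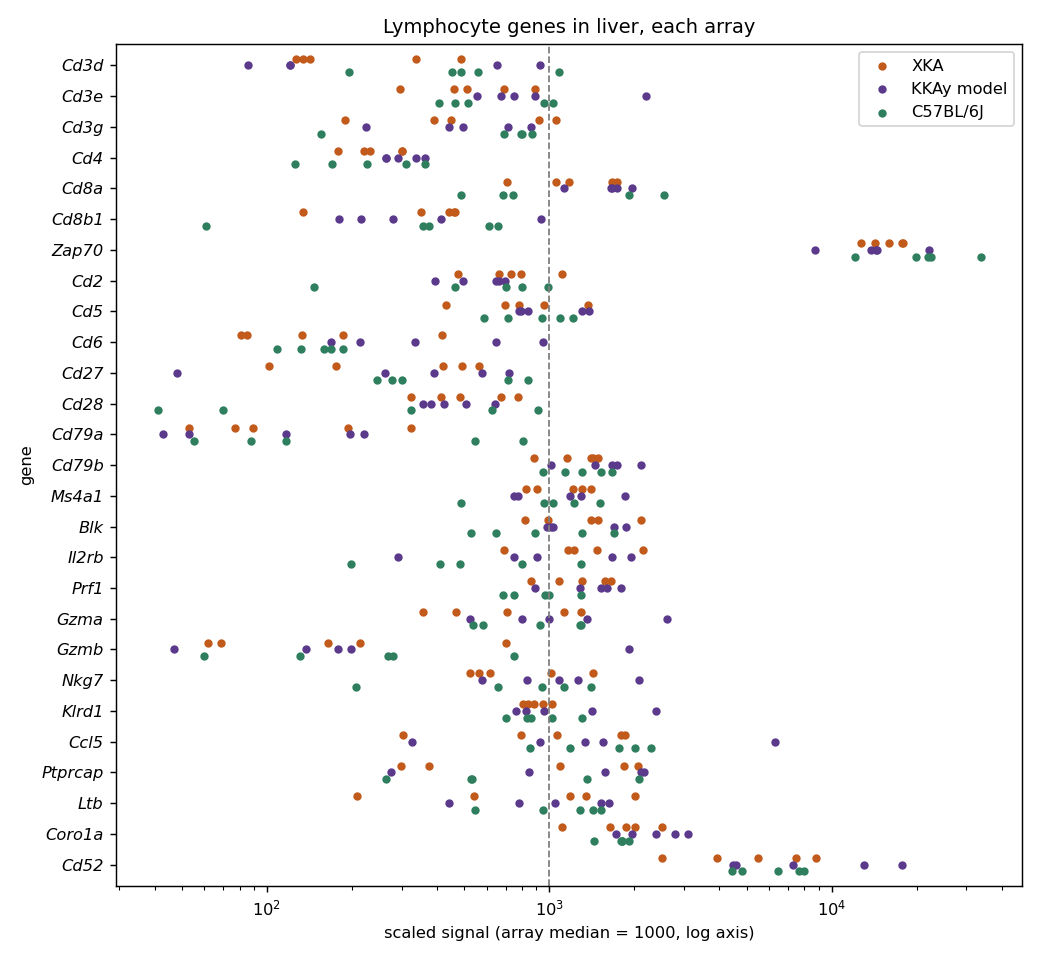
Scaled signal (horizontal log axis, array median 1000, dashed line) of the 27 measured lymphocyte genes on each array, with the XKA group in orange, the KKAy model group in purple and the C57BL/6J group in green; each point is 1 array. The 3 groups overlap in every gene, and Zap70, Coro1a and Cd52 lie to the right of the dashed line on all 15 arrays.

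The comparison of XKA with the KKAy model asks whether treatment moved these genes in diabetic liver. None of the 27 genes passed an adjusted p of 0.05 (limma, Benjamini-Hochberg over 18193 genes, two-sided), where 0.176% of all genes passed. The lowest adjusted p was 0.54, for Cd6. An unadjusted p under 0.05 was reached by 1 gene (Cd6), against 8.58% of all genes. The log2 change was below 0 in 18 genes and above 0 in 9, with a median of -0.31 and a range of -1.34 to 0.46. Over all genes the median was -0.06, and 41.6% were above 0. No gene had groups that did not overlap, where 1.45% of all genes did.

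Between the KKAy model and C57BL/6J livers, 0 of 27 genes passed the adjusted p, while 12.8% of all genes passed. The lowest adjusted p was 0.118, for Zap70. Cd6 and Zap70 had an unadjusted p under 0.05, which is 2 of 27 genes against 25.1% of all genes. The median log2 change was 0.32, with 19 genes above 0 and 8 below. Over all genes the median was 0.15, and 62.8% were above 0. Groups that did not overlap were seen in none of the 27 genes and in 10.5% of all genes. Among the 5812 genes whose 3 group means were all at or under the array median, 1.57% passed, and among the 12381 others 18.1% passed. Of the 27 lymphocyte genes, 10 were of the first kind and 17 of the second.

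Between XKA and C57BL/6J, again 0 of 27 genes passed, while 7.37% of all genes passed. The lowest adjusted p was 0.191, for Il2rb, which was also the only gene with an unadjusted p under 0.05 (19.3% of all genes). The median log2 change was -0.04, with 13 genes above 0 and 14 below. Over all genes it was 0.10, and 59.2% were above 0. Groups that did not overlap were seen in none of the 27 genes and in 6.95% of all genes. These counts do not show that the genes were at the same level. Over the lymphocyte genes the log2 changes had a median standard error of 0.47, against 0.28 over all genes. The 95% interval lay wholly within a 2-fold change for 6 of 27 genes between XKA and the KKAy model, for 4 between the KKAy model and C57BL/6J and for 6 between XKA and C57BL/6J. The 3 comparisons share arrays, so their values are given side by side and are not separate evidence.

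**Figure D2:**
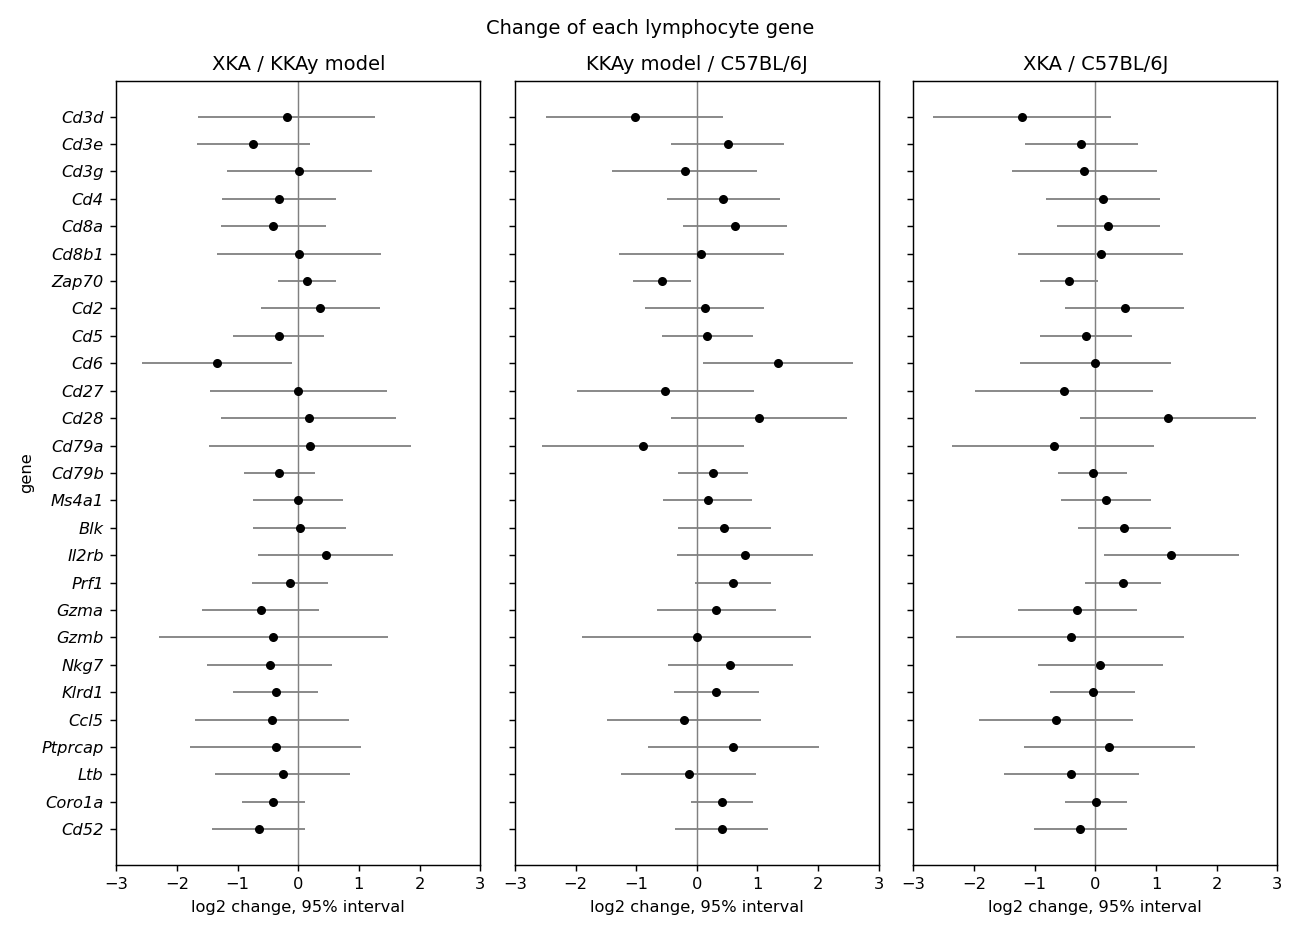
Log2 change of each measured lymphocyte gene (points) with its 95% interval (lines) from limma, for XKA over the KKAy model (left), the KKAy model over C57BL/6J (middle) and XKA over C57BL/6J (right). Only Cd6 in the left panel, Cd6 and Zap70 in the middle panel and Il2rb in the right panel have an interval that leaves out 0, and none of the 27 genes passed after adjustment.

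The CD3 chains, which every T cell carries as the invariant part of its receptor, were dim and scattered. Cd3e had signals of 887, 460, 689, 513 and 297 on the XKA arrays and 2196, 556, 747, 676 and 891 on the KKAy model arrays. On the C57BL/6J arrays its signals were 406, 462, 516, 1029 and 957. KKAy model array 1 was far above the rest, and the other arrays of all 3 groups overlapped. Its log2 change was -0.74 (standard error, SE, 0.45, limma adjusted p = 0.693) between XKA and the KKAy model and 0.51 (SE 0.45, adjusted p = 0.538) between the KKAy model and C57BL/6J. Cd3d averaged 246 ± 161 in the XKA group, 382 ± 385 in KKAy model livers and 556 ± 327 in C57BL/6J livers (SD, n = 5 each). Its log2 change was -1.02 (SE 0.70, limma adjusted p = 0.405) between the KKAy model and C57BL/6J, with KKAy model arrays both under and over most C57BL/6J arrays (86 to 925 against 195 to 1086). Cd3g averaged 600 ± 368, 546 ± 248 and 663 ± 291 in the XKA, KKAy model and C57BL/6J groups.

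Cd8a and Cd8b1 encode the chains of CD8, the coreceptor for MHC class I on cytotoxic T cells, and Cd4 encodes the coreceptor for MHC class II on helper T cells. The brightest of 5 Cd8a probe sets (1440164_x_at) had signals of 1739, 1170, 1055, 709 and 1669 on the XKA arrays and 1738, 1658, 1954, 1671 and 1127 on the KKAy model arrays. On the C57BL/6J arrays its signals were 1919, 487, 683, 2547 and 741. The C57BL/6J arrays held both the lowest and the highest value, and both KKAy groups lay between them. The log2 change of this probe set between the KKAy model and C57BL/6J was 0.63 (SE 0.41, limma adjusted p = 0.378), while the other 4 Cd8a probe sets ran from -0.77 to 0.09 there. The suffix x_at marks a probe set whose probes may also bind other transcripts. Cd8b1 averaged 370 ± 140, 406 ± 311 and 412 ± 238 in the XKA, KKAy model and C57BL/6J groups, and Cd4 averaged 247 ± 53.7, 304 ± 44.5 and 239 ± 97.7 (SD, n = 5 each). Both stayed under the array median on every array.

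Zap70, the kinase that docks on phosphorylated CD3 chains, had 3 probe sets, all over the array median on all 15 arrays, and they disagreed. The brightest (1439749_at) read 17746, 17821, 15887, 12677 and 14234 on the XKA arrays and 8710, 14392, 14420, 22088 and 13726 on the KKAy model arrays. On the C57BL/6J arrays it read 33838, 19938, 12041, 21936 and 22526. C57BL/6J array 3 was below 4 of the 5 KKAy model arrays and KKAy model array 4 was above 3 of the 5 C57BL/6J arrays. The log2 change was -0.57 (SE 0.23, limma adjusted p = 0.118) between the KKAy model and C57BL/6J and 0.15 (SE 0.23, adjusted p = 0.916) between XKA and the KKAy model. The difference from C57BL/6J passed the threshold when 1 of those arrays was left out, at an adjusted p of 0.0254 without C57BL/6J array 3 and of 0.046 without KKAy model array 4. It also passed on the values as deposited (log2 change -0.77, adjusted p = 0.0318) and after quantile normalization (-0.77, adjusted p = 0.0172).

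The probe set 1422701_at of Zap70 pointed the other way. It read 5246, 8022, 7405, 7714 and 8456 on the XKA arrays and 11185, 11072, 10470, 8553 and 7507 on the KKAy model arrays, against 7607, 8323, 6229, 6920 and 4230 on the C57BL/6J arrays. All but KKAy model array 5 lay above every C57BL/6J array. Its log2 change between the KKAy model and C57BL/6J was 0.57 (SE 0.18, limma adjusted p = 0.051 over 34945 probe sets, of which 10.1% passed). Between XKA and the KKAy model it was -0.41 (adjusted p = 0.561), where 0.117% of all probe sets passed. The remaining probe set (1440178_x_at) averaged 6520 ± 751 in the XKA group, 6810 ± 1080 in KKAy model livers and 5630 ± 642 in C57BL/6J livers (SD, n = 5 each), a log2 change of 0.27 between the KKAy model and C57BL/6J (adjusted p = 0.288). No direction for Zap70 as a gene can be read from these arrays. Opposite signs among the probe sets of 1 gene were usual here: of the 8 lymphocyte genes with more than 1 probe set, 7 had them between XKA and the KKAy model and 5 in each comparison with C57BL/6J. None of the 40 probe sets passed in any of the 3 comparisons, the share of all probe sets between XKA and C57BL/6J being 5.71%.

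**Figure D3:**
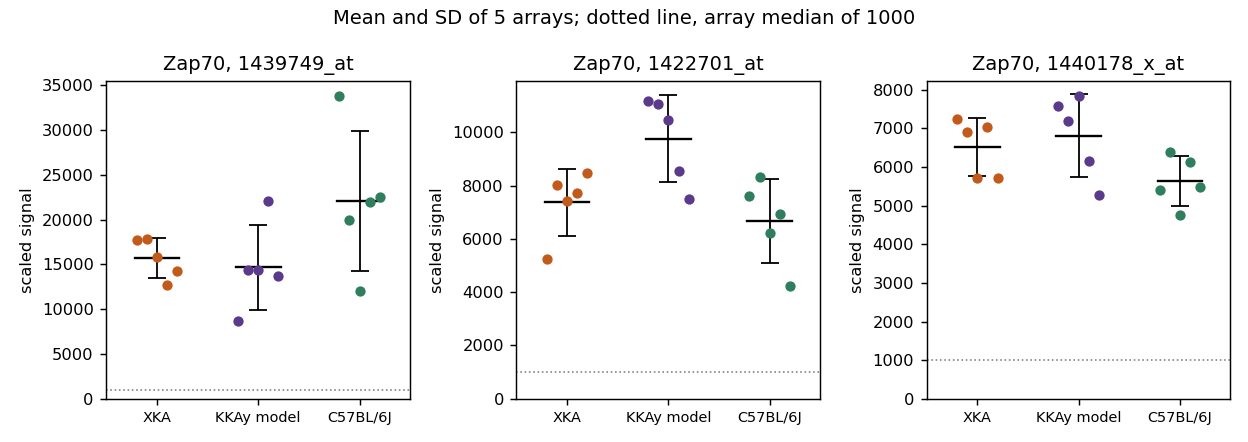
Scaled signal (vertical axis, starting at 0) of the 3 Zap70 probe sets on each array of the XKA, KKAy model and C57BL/6J groups; points are arrays, horizontal bars the mean and whiskers the SD (n = 5), and the dotted line is the array median of 1000. The KKAy model mean is under the C57BL/6J mean in the left panel (14700 and 22100) and over it in the middle panel (9760 and 6660).

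Among the adhesion and costimulatory molecules of T cells, Cd6, a receptor of the scavenger family that tunes T cell activation, came closest to a difference. Its signals were 85, 418, 186, 133 and 81 on the XKA arrays and 214, 169, 950, 646 and 335 on the KKAy model arrays. On the C57BL/6J arrays they were 159, 169, 186, 132 and 109. The C57BL/6J arrays were close together, KKAy model arrays 1, 3, 4 and 5 were above all of them, and so was XKA array 2. The log2 change was -1.34 (SE 0.59, limma adjusted p = 0.54) between XKA and the KKAy model and 1.34 (SE 0.59, adjusted p = 0.161) between the KKAy model and C57BL/6J. All 15 values were under the array median, and neither comparison passed. Cd5, of the same family, had signals of 955, 432, 782, 694 and 1376 on the XKA arrays, 794, 781, 841, 1309 and 1382 on the KKAy model arrays and 587, 714, 941, 1217 and 1094 on the C57BL/6J arrays. The 3 groups overlapped, and the log2 change was -0.32 (95% interval -1.08 to 0.43) between XKA and the KKAy model. Cd2, which binds partner cells, averaged 755 ± 233, 580 ± 130 and 620 ± 326 in the XKA, KKAy model and C57BL/6J groups (SD, n = 5 each).

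Cd28, the main costimulatory receptor of resting T cells, averaged 533 ± 185 in the XKA group, 462 ± 116 in KKAy model livers and 395 ± 373 in C57BL/6J livers (SD, n = 5 each). Its C57BL/6J signals were 70 and 41 on arrays 1 and 3, and 913, 325 and 626 on arrays 2, 4 and 5. Its other probe set had the opposite sign in both comparisons with C57BL/6J. Cd27, a costimulator of the tumour necrosis factor receptor family, averaged 351 ± 202, 399 ± 262 and 476 ± 279 in the XKA, KKAy model and C57BL/6J groups.

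The 4 B cell genes had a median log2 change of 0.01 between XKA and the KKAy model and 0.22 between the KKAy model and C57BL/6J, and none passed. Without KKAy model array 4 these medians were -0.08 and 0.08. Cd79b, a signalling chain of the B cell receptor, had signals of 886, 1406, 1491, 1427 and 1154 on the XKA arrays, 1450, 1673, 1736, 2110 and 1010 on the KKAy model arrays and 1668, 1520, 949, 1306 and 1132 on the C57BL/6J arrays. The groups overlapped throughout, and the log2 change was -0.31 (95% interval -0.89 to 0.27) between XKA and the KKAy model. Ms4a1, which encodes the B cell surface protein CD20, averaged 1130 ± 252, 1170 ± 450 and 1040 ± 375 in the XKA, KKAy model and C57BL/6J groups (SD, n = 5 each), with a log2 change of 0 between XKA and the KKAy model. Its other, dimmer probe set (1450912_at) averaged 139 ± 91.8, 358 ± 133 and 244 ± 162 in these groups, with a log2 change of -1.64 between XKA and the KKAy model (SE 0.72, limma adjusted p = 0.548). Blk, a Src family kinase of B cells, averaged 1360 ± 500, 1320 ± 430 and 1010 ± 482 in these groups. Cd79a, the partner of Cd79b, was under the array median on all 15 arrays, at 43 to 808. It read 53, 197, 221, 43 and 117 on the KKAy model arrays and 117, 808, 55, 547 and 88 on the C57BL/6J arrays, of which only arrays 2 and 4 stood out. Its log2 change between these groups was -0.89 (SE 0.80, limma adjusted p = 0.549).

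The NK and cytotoxic genes had a median log2 change of -0.41 between XKA and the KKAy model, with 6 of 7 genes below 0, and of 0.32 between the KKAy model and C57BL/6J, with 5 of 7 above 0. None of the 7 passed. Without KKAy model array 4 these medians were -0.10, with 4 of 7 below 0, and 0.06. Il2rb is the receptor chain that interleukins 2 and 15 share. Its signals were 2146, 1219, 1478, 1163 and 692 on the XKA arrays, 291, 1667, 1941, 749 and 907 on the KKAy model arrays and 481, 1290, 798, 199 and 409 on the C57BL/6J arrays. XKA arrays 1 and 3 were above every C57BL/6J array, and the others overlapped with them. The log2 change was 1.25 (SE 0.53, limma adjusted p = 0.191) between XKA and C57BL/6J and 0.46 (SE 0.53, adjusted p = 0.868) between XKA and the KKAy model. Its other probe set gave 0.33 between XKA and C57BL/6J and, with the opposite sign, -0.16 between XKA and the KKAy model. Prf1, perforin, which opens the target cell membrane, averaged 1290 ± 331 in the XKA group, 1420 ± 344 in KKAy model livers and 939 ± 242 in C57BL/6J livers, a log2 change of 0.59 between the KKAy model and C57BL/6J (SE 0.30, limma adjusted p = 0.23).

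The granule proteases Gzma and Gzmb, the granule membrane protein gene Nkg7, the CD94 receptor chain Klrd1 and the chemokine Ccl5 shared 1 feature: each had its highest signal of all 15 arrays on KKAy model array 4. Il2rb and Prf1, of the same role, did not share it. On this array Il2rb was 749 and Prf1 was 1284. Their highest signals were 2146 on XKA array 1 and 1788 on KKAy model array 2. Gzmb had signals of 214, 701, 164, 62 and 69 on the XKA arrays, 178, 198, 138, 1917 and 47 on the KKAy model arrays and 269, 279, 60, 751 and 131 on the C57BL/6J arrays. Without array 4 the KKAy model group had no value over 198. Ccl5 had signals of 304, 1067, 1850, 1795 and 795 on the XKA arrays, 1548, 327, 1333, 6316 and 926 on the KKAy model arrays and 2284, 2011, 855, 1759 and 1185 on the C57BL/6J arrays. Array 4 was 2.77 times the next highest of the 15 arrays for Ccl5 and 2.55 times for Gzmb. Gzma had signals of 709, 1296, 1130, 467 and 356 on the XKA arrays, 798, 1364, 1000, 2603 and 524 on the KKAy model arrays and 929, 1284, 584, 1296 and 536 on the C57BL/6J arrays, with array 4 at 1.91 times the next highest. Klrd1 was 2390 on array 4 against 1417 on the next, and Nkg7 was 2072 against 1428.

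The promoters of Gzma, Gzmb and Nkg7, as examples of granule genes that peaked on the same array, are given from RefSeq on build GRCm38.p6, 250 bases before to 50 after each gene start, in the direction of the gene. They lie at chr13:113100932-113101231 (minus strand), chr14:56262285-56262584 (minus strand) and chr7:43436888-43437187 (plus strand). Capitals mark TGTGGT or its reverse complement ACCACA, the core bound by RUNX factors, and AGGAAG or its reverse complement CTTCCT, an ETS-type core.
Gzma: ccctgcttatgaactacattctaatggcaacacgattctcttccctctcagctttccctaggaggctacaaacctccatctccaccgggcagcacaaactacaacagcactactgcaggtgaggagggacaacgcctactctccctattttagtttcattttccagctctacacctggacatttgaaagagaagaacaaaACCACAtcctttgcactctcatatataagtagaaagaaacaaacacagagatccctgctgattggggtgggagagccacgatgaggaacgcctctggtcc
Gzmb: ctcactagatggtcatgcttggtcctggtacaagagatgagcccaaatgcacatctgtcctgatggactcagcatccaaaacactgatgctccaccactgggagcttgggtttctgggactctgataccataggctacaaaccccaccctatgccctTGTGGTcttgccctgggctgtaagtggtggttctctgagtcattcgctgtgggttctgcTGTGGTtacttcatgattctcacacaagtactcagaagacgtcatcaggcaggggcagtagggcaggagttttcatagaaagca
Nkg7: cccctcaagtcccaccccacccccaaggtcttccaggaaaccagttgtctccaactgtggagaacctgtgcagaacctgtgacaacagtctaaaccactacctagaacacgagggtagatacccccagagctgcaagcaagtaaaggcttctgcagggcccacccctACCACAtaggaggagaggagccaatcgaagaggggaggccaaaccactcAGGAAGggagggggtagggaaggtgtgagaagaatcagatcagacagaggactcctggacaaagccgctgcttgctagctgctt
RUNX factors and ETS factors are known regulators of lymphocyte genes. The RUNX core was found in the promoters of 5 of the 14 lymphocyte genes that could be matched (Gzma, Gzmb, Nkg7, Prf1 and Zap70), which is 5 of their 17 promoters, and in 16.8% of all 32851 promoters of this length. The ETS-type core was found in 10 of the 17 promoters and in 35.4% of all promoters. These are matches of letters on either strand and do not show binding.

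Coro1a, Cd52, Ptprcap and Ltb are not confined to 1 of these lymphocyte types. All 4 had a log2 change below 0 between XKA and the KKAy model (median -0.39, or -0.22 without KKAy model array 4), and none passed. Cd52, a short surface peptide on a lipid anchor found on lymphocytes and myeloid cells, had signals of 2507, 7460, 8800, 5503 and 3929 on the XKA arrays and 7293, 4574, 13021, 17725 and 4466 on the KKAy model arrays. On the C57BL/6J arrays its signals were 4811, 7674, 4419, 6473 and 7989. KKAy model arrays 3 and 4 were above all others, and the remaining 3 overlapped with both other groups. The log2 change between XKA and the KKAy model was -0.65 (SE 0.37, limma adjusted p = 0.661), and -0.37 without KKAy model array 4. Coro1a, an actin-binding protein of leukocytes, averaged 1820 ± 510 in the XKA group, 2390 ± 566 in KKAy model livers and 1760 ± 182 in C57BL/6J livers (SD, n = 5 each). Its log2 changes were -0.41 (SE 0.25, adjusted p = 0.694) between XKA and the KKAy model and 0.42 (SE 0.25, adjusted p = 0.314) between the KKAy model and C57BL/6J. Its 3 probe sets disagreed, with changes of -0.41 to 0.19 in the first comparison and of -0.29 to 1.09 in the other. Ptprcap, which binds the phosphatase CD45, averaged 1130 ± 811, 1400 ± 823 and 951 ± 752 in the XKA, KKAy model and C57BL/6J groups. Ltb, lymphotoxin beta, a cytokine that shapes lymphoid tissue, averaged 1060 ± 706, 1090 ± 498 and 1140 ± 401.

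KKAy model array 4 was the highest of the 15 arrays for 9 of the 27 genes, and no other array was the highest for more than 3. Beside Gzma, Gzmb, Nkg7, Klrd1 and Ccl5, these were Cd79b, Ms4a1, Coro1a and Cd52. The array was also the lowest of all 15 for Cd3d, Cd27 and Cd79a. This was noticed in the values and was not tested, and the share of all genes that were highest on this array was not computed. The summed signal of the 27 genes ran from 34746 to 49170 in the XKA group (median 40265), from 37535 to 75275 in the KKAy model group (median 41802) and from 33325 to 58811 in the C57BL/6J group (median 50693), with the highest value on array 4. The probe set 1439749_at of Zap70, whose direction is not settled, made up much of these sums. Without it the sum of the other 26 genes ran from 20513 to 32089 in the XKA group (median 23980), from 26629 to 53187 in the KKAy model group (median 28828) and from 21286 to 31746 in the C57BL/6J group (median 25332), again highest on array 4. The array was also the highest of the 15 for 13 of 16 pan-leukocyte genes, whose sum was 122190 there against 87339 on the next array, and for 11 of 14 Kupffer cell and macrophage genes, whose sum was 618084 against 517006. It was the highest for 4 of 19 further NK and cytotoxic genes, whose sum was greatest on C57BL/6J array 2 (20434, against 18333 on array 4). Array 4 was the highest for 1 of 18 further T cell genes, whose sum was greatest on KKAy model array 3. For 3 of 16 further B cell genes and 0 of 9 hepatocyte genes it was the highest. The part of other leukocytes in the lymphocyte signals of array 4 was not tested. Without array 4, the median log2 change of the lymphocyte genes was -0.16 between XKA and the KKAy model and 0.13 between the KKAy model and C57BL/6J. Gzmb then gave 0.38 between XKA and the KKAy model, where it was -0.41 with all arrays, and Ccl5 gave 0.12 where it was -0.44.

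**Figure D4:**
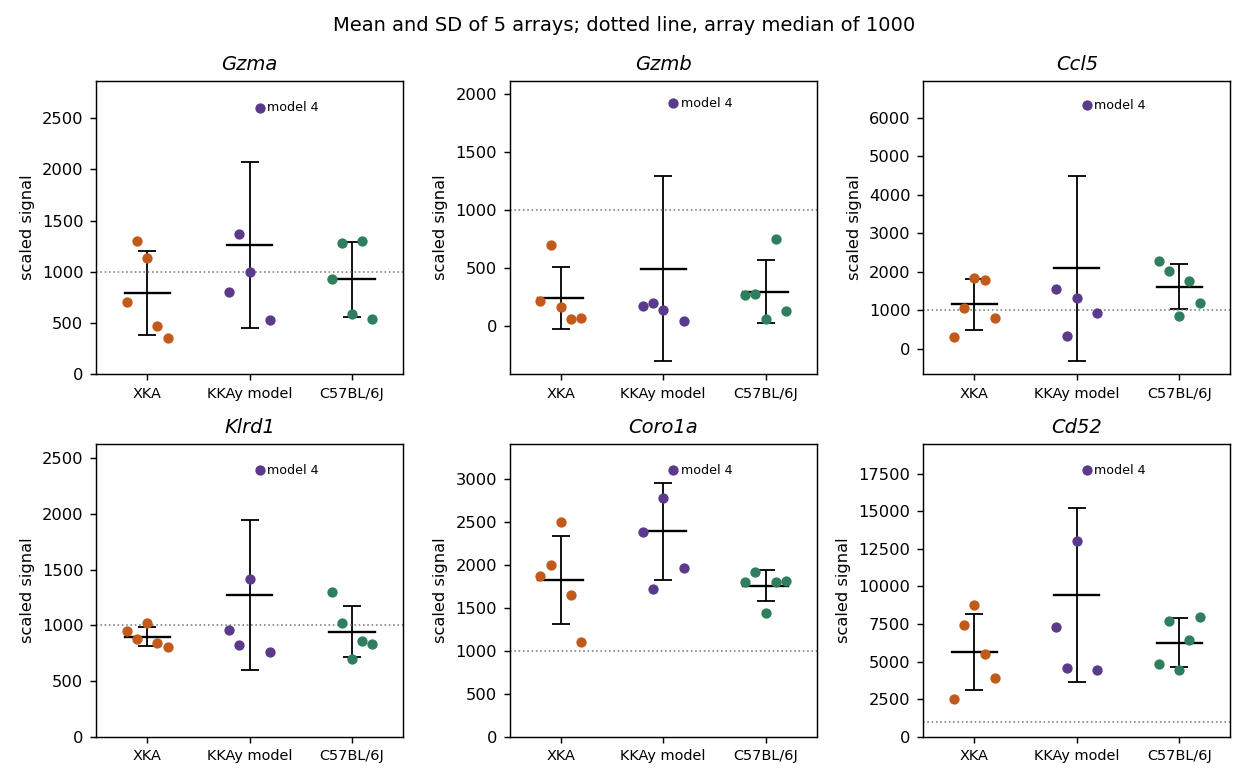
Scaled signal (vertical axes, each with its own scale) of Gzma, Gzmb, Ccl5, Klrd1, Coro1a and Cd52 on each array of the XKA, KKAy model and C57BL/6J groups; points are arrays, horizontal bars the mean and whiskers the SD (n = 5). The array marked model 4 is the highest of the 15 in all 6 panels, at 1917 for Gzmb and 6316 for Ccl5.

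**Figure D5:**
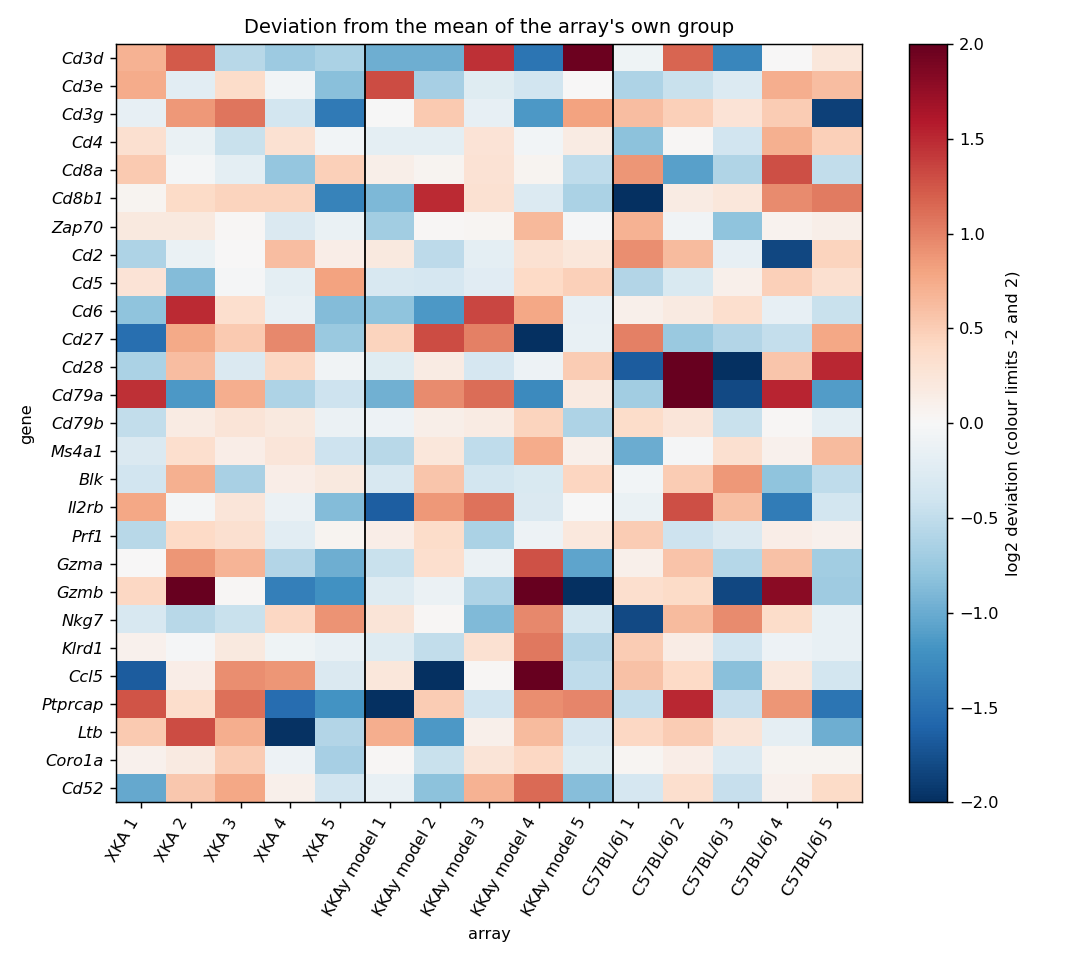
Log2 deviation of each lymphocyte gene (rows) on each array (columns, XKA, KKAy model and C57BL/6J from left to right) from the mean of that array's own group, with red above and blue below and colours limited at -2 and 2. KKAy model array 4 is red for Gzma, Gzmb, Nkg7, Klrd1, Ccl5 and Cd52 and blue for Cd3d, Cd27 and Cd79a.

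Further lymphocyte genes outside the 27 were read against the shares of all genes that passed, which were 12.8% between the KKAy model and C57BL/6J, 7.37% between XKA and C57BL/6J and 0.176% between XKA and the KKAy model. Of 18 more T cell genes, 13 were above 0 and 5 below between the KKAy model and C57BL/6J, with a median of 0.21. Between XKA and C57BL/6J 9 were above 0 and 9 below. Only 1 passed as higher between the KKAy model and C57BL/6J. This was Themis, which is needed for T cell development in the thymus. Its signals were 9699, 9583, 6061, 2115 and 4678 on the XKA arrays, 10568, 7161, 9900, 12508 and 8446 on the KKAy model arrays and 1399, 2071, 1364, 1306 and 920 on the C57BL/6J arrays. Every KKAy array, treated or not, was above every C57BL/6J array, with a log2 change of 2.80 (SE 0.33, limma adjusted p = 7.36e-06) between the KKAy model and C57BL/6J and of 2.04 (SE 0.33, adjusted p = 0.000395) between XKA and C57BL/6J. The CD3 chains of the same arrays had changes of -1.02 to 0.51 and -1.21 to -0.18 in these comparisons, none of which passed. Of 16 more B cell genes, Bank1, an adaptor of B cell receptor signalling, rose between the KKAy model and C57BL/6J, at 4420 ± 1350 and 2230 ± 658 (SD, n = 5 each), a log2 change of 0.98 (SE 0.25, limma adjusted p = 0.0139). Of these 16 B cell genes, 6 were above 0 and 10 below there, with a median of -0.06. None of 8 plasma cell genes passed in any comparison.

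Of 19 more NK and cytotoxic genes, 1 passed in each comparison with C57BL/6J. Between the KKAy model and C57BL/6J 11 of the 19 were above 0 and 8 below. Between XKA and C57BL/6J 7 were above 0 and 12 below. Eomes, a transcription factor of NK cells and memory T cells, rose between the KKAy model and C57BL/6J, at 716 ± 154 and 238 ± 160 (SD, n = 5 each), a log2 change of 1.86 (SE 0.55, limma adjusted p = 0.0308). Klra8, the Ly49H receptor of NK cells, which C57BL/6 mice carry and many other inbred strains lack, fell between XKA and C57BL/6J. Its signals were 81, 24, 141, 57 and 19 on the XKA arrays, 81, 110, 96, 288 and 235 on the KKAy model arrays and 354, 350, 316, 445 and 234 on the C57BL/6J arrays. No XKA array reached the lowest C57BL/6J array, and the log2 change was -2.75 (SE 0.62, adjusted p = 0.00858). Both Eomes and Klra8 were under the array median on all 15 arrays. No gene of these lists passed between XKA and the KKAy model.

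Markers of other cells in the same livers are given beside the same shares. Of 14 Kupffer cell and macrophage genes, 3 rose between the KKAy model and C57BL/6J (Mpeg1, Lyz2 and C1qc, by 1.09, 0.80 and 0.56 on the log2 scale) and Marco, a scavenger receptor, fell by 3.10. The median of that list was 0.51 in this comparison and -0.58 between XKA and the KKAy model. Between XKA and the KKAy model 13 of 14 genes were below 0, 9 had an unadjusted p under 0.05 and none passed. Of all genes, 41.6% were above 0 and 8.58% had an unadjusted p under 0.05 there. KKAy model array 4 was the highest array for 11 of these 14 genes, and their median without that array was not computed. The summed signal of these genes ran from 189813 to 351077 in the XKA group, from 245769 to 618084 in the KKAy model group and from 195844 to 340918 in the C57BL/6J group. Of 16 pan-leukocyte genes, Lcp1, an actin bundler of leukocytes, rose by 0.55 (limma adjusted p = 0.0139) between the KKAy model and C57BL/6J, and 14 of 16 were below 0 between XKA and the KKAy model. Bst2 of 8 dendritic cell genes rose by 1.14, and Lcn2 and S100a8 of 9 neutrophil genes rose by 3.56 and 2.16, between the KKAy model and C57BL/6J. Of these lists, 3 dendritic cell genes were above 0 and 5 below there, and 8 neutrophil genes were above 0 and 1 below. Without Lcn2, the largest part of the neutrophil sum, the other 8 genes summed to 7921 to 26429 in XKA livers, 14881 to 33507 in KKAy model livers and 8043 to 12870 in C57BL/6J livers. Without Bst2, the largest part of the dendritic sum, the other 7 genes summed to 4092 to 7254, 5486 to 6679 and 5621 to 8396 in the XKA, KKAy model and C57BL/6J groups. Alas2 of 3 erythroid genes rose by 1.88 in KKAy model livers and by 1.42 in XKA livers, each over C57BL/6J, and Apob of 9 hepatocyte genes by 0.57 and 0.56. Over C57BL/6J, 2 of the 3 erythroid genes were above 0 and 1 below in KKAy model livers. In XKA livers 1 was above 0 and 2 below. Of the 9 hepatocyte genes, 6 were above 0 and 3 below in each comparison with C57BL/6J. None of 3 lymphoid stroma genes passed. Many of these genes are also made by other liver cells, and their part in the shared leukocyte genes Coro1a and Cd52 was not tested.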

How the data were processed

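Liver RNA of 15 mice was hybridised to Affymetrix Mouse 430 2.0 arrays, 1 mouse per array. The values deposited by the authors are linear intensities, 1 per probe set and array. ArrayTrack scaling to a median of 1000 is named in the methods but does not show in the deposited medians, and was therefore applied here. Probe summary and background subtraction are not given in the sources used here, and no detection calls were used. Of 45101 probe sets, 34958 carried 1 gene symbol, 932 several and 9211 none, 34741 were matched by Entrez identifier, and 13 control probe sets were left out.

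Scaled signals were taken to log2. For each of 18193 genes the probe set of highest mean log2 signal was taken, and all 34945 probe sets were tested as well. All 15 arrays entered 1 fit in limma 3.58.1 (R 4.3.3, data.table version 1.17.8) with an intensity trend, two-sided, and p was adjusted by Benjamini-Hochberg over all genes or probe sets. A gene was called at an adjusted p under 0.05. The script was tested on simulated data. Figures were drawn with matplotlib 3.10.9 and pandas 2.3.3 in Python 3.11.15. The number of arrays limits the precision. The labels do not say that replicate numbers pair animals, and the main fit used no pairing.

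The lymphocyte genes and the other gene lists were chosen with earlier results of these data known. The text names all lymphocyte genes and up to 4 called genes of each other list per comparison and direction. Signals on every array were planned for called genes and for the brightest gene of each role, and those of Cd6, Il2rb, Gzma, Gzmb, Cd79a, Themis, Klra8 and 1 further Zap70 probe set were added once the values had been seen. The alternatives were other scalings, an offset of 100, other ways to combine probe sets, a filter on dim genes, no trend, array weights, a replicate block, Dunnett comparisons, and leaving out each array. The choice of probe set by the mean linear signal, sums without Zap70, Lcn2 or Bst2, and medians of a role without KKAy model array 4 were added after the values were seen.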

Additional observations from a re-analysis of the deposited data

Results flagged for a closer look

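Of 81 sets of 5 arrays (27 genes in 3 groups), 4 had 1 array whose gap to its nearest neighbour, on the log2 scale, took more than 0.71 of the log2 range of the set, which is Dixon's critical value. Chance alone gives about 1 in 20. All 4 were low arrays. Cd8b1 had a scaled signal of 134 on XKA array 5 with the next at 352 (log2 ratio of gap to range 0.781), and of 61 on C57BL/6J array 1 with the next at 358 (0.743). Cd3g was 156 on C57BL/6J array 5 with the next at 691 (0.866). Coro1a was 1443 on C57BL/6J array 3 with the next at 1800 (0.772). The scale decides which arrays stand apart. With the ratio taken on linear signals, which was added after the values were seen, 6 sets passed. Cd3g and Coro1a passed again at 0.75 and 0.745, Cd8b1 did not, and 4 high arrays passed: Gzmb at 0.919 and Ccl5 at 0.796 on KKAy model array 4, Cd3e at 0.796 on KKAy model array 1 and Gzmb at 0.762 on XKA array 2.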

How the results depend on the processing

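In 26 alternatives, no lymphocyte gene was called between XKA and the KKAy model or between XKA and C57BL/6J. Between the KKAy model and C57BL/6J, Zap70 was called as lower in 4 of them. The count was then 1 on the values as deposited (adjusted p = 0.0318 from limma) and after quantile normalization (0.0172), and 1 of 40 probe sets (1439749_at) was called in the same 2 settings. Leaving out each array in turn gave 0 to 1 calls there, with Zap70 called without KKAy model replicate 4 (0.046) or C57BL/6J replicate 3 (0.0254), and 0 to 0 in the other comparisons. The median log2 change of the genes ran from -0.37 to -0.10 between XKA and the KKAy model, from 0.13 to 0.40 between the KKAy model and C57BL/6J and from -0.11 to -0.01 between XKA and C57BL/6J with 1 array left out. Single genes changed sign in 49, 29 and 50 of 692 refits in these comparisons, for 15, 12 and 16 of 27 genes. Scaling moved the all-gene median of the KKAy model over C57BL/6J (0.15 as scaled, -0.04 as deposited, 0.04 after quantile normalization), with 0.32, 0.13 and 0.25 for the lymphocyte genes.

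The replicate number as a block called 0 lymphocyte genes in each comparison, with medians of -0.31, 0.32 and -0.04. Same-numbered arrays did not deviate together over all genes (correlations of -0.04 to 0.09 over 15 pairs). These correlations cannot settle whether the numbers carry a pairing, on which the labels are silent. Over all genes, the 32 calls between XKA and the KKAy model became 63 as deposited, 113 after quantile normalization, 57 with array weights, 6 with the mean of the probe sets, 4 without the trend, 1 with Dunnett comparisons and 11 to 61 with 1 array left out. The 2336 calls between the KKAy model and C57BL/6J became 1363 with Dunnett comparisons, and their split was 1906 higher and 430 lower as scaled, 1118 and 1017 as deposited and 1587 and 1092 after quantile normalization. The 1341 calls between XKA and C57BL/6J became 700 with Dunnett comparisons, 828 with the mean of the probe sets and 881 without the trend, and the split of 999 higher and 342 lower became 697 and 768 as deposited and 1016 and 793 after quantile normalization. The filter on dim genes left 17 of the 27 lymphocyte genes. Signals near those of receptors that liver does not use limit what these arrays can show for the dim genes.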
